A study of Mus musculus with 39 samples.

Results

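Ribosome footprints were compared between tumors of mice given difluoromethylornithine (DFMO) on a control diet and tumors of untreated mice on the same diet. The members were the 10 footprint libraries whose column names carry the control diet alone (5 mice) or the control diet with DFMO (5 mice), out of 39 libraries in the series. The study measured tumors of TH-MYCN mice under DFMO, under a diet lacking proline and arginine, under both, or under neither. Of its libraries, 20 hold footprints and 19 hold total RNA, and the RNA libraries are not used here. All 10 mice carried the TH-MYCN transgene, which drives MYCN from the tyrosine hydroxylase promoter in cells of the sympathetic lineage, and the labels record their genotype as MYCN amplified. Each library came from a different mouse. The labels give no batch, sex, age, dose or length of treatment, so their part cannot be told apart from the treatment. An alternative fit used sex as inferred from Y-linked footprints. Footprints are the messenger fragments that ribosomes shield from RNase, so a change in footprints joins changes in messenger amount and in ribosome load. In whole tumors, fewer cells of a type and less RNA per cell also cannot be told apart.

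Polyamines (putrescine, spermidine and spermine) are small cations bound mostly to RNA, and growing cells make them from ornithine by the decarboxylase ODC1, the enzyme that DFMO inactivates. Cells sense polyamine shortage partly on the ribosome: antizyme, which destroys ODC1, is made only when polyamines push ribosomes into another frame, and the leader of the Amd1 messenger holds a short reading frame on which polyamines stall ribosomes. Spermidine is also the source of hypusine, the modified residue that makes eIF5A work in elongation. In neuroblastoma, MYCN raises ODC1 together with ribosome production.

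The leader frame of Amd1 is shown because Amd1 is among the polyamine genes whose footprints rose. It lies at chr10:40302155-40302175 on the minus strand (GRCm38, GENCODE M21, transcript ENSMUST00000099945), and starts 12 bases into a leader of 328 bases. Capitals mark the whole frame, of 6 codons and a stop.
Amd1 leader frame: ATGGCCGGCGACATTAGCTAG
The promoters below are shown because they carry the short sequences counted further on in the genes of chaperones of the endoplasmic reticulum and of ribosome assembly. Each is the stretch of 250 bases that precedes the start site, read 5′ to 3′ on the gene's strand, from RefSeq on GRCm38.p6. In the first 4, capitals mark the ER stress element, CCAAT and CCACG separated by 9 bases of any kind, or its reverse complement, which reads CGTGG first. In Nop2 and Wdr46 they mark the E-box CACGTG, the palindrome that MYC and MYCN bind with MAX. The stretches lie at chr2:34771840-34772089 (plus strand), chr10:86705445-86705694 (minus), chr8:84846932-84847181 (minus), chr12:17266339-17266588 (plus), chr6:125131633-125131882 (plus) and chr17:33940473-33940722 (plus).
Hspa5: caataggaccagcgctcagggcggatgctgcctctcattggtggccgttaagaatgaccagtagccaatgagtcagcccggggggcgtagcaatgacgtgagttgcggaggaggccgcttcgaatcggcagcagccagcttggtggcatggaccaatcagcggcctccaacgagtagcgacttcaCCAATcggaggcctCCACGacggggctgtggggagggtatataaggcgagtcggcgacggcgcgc
Hsp90b1: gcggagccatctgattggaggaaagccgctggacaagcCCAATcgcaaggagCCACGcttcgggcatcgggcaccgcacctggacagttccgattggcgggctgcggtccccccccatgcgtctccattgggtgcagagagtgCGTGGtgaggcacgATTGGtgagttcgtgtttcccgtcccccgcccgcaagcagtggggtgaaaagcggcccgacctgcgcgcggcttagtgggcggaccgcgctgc
Calr: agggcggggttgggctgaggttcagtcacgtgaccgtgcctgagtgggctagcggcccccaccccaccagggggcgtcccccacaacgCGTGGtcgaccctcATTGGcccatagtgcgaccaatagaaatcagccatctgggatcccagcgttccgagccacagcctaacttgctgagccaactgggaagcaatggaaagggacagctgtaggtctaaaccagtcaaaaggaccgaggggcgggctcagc
Pdia6: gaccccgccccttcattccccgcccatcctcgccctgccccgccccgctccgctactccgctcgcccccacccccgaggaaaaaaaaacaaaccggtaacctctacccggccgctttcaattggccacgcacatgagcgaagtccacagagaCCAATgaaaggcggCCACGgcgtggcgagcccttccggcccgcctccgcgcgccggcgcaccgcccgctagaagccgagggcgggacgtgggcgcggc
Nop2: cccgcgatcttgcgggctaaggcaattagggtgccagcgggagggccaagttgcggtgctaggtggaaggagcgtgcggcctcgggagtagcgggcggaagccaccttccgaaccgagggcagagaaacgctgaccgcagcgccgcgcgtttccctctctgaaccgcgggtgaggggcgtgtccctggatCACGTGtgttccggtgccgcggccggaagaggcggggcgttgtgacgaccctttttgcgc
Wdr46: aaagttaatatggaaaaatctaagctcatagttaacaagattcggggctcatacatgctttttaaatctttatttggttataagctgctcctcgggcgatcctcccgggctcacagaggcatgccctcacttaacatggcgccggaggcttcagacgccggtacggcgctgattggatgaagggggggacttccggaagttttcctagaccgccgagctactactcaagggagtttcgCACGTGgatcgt

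The control libraries were the shallow ones. They held 2.14 to 4.57 M counts (M for mega, mean 3.10 ± 0.940 M, SD, n = 5), and the DFMO libraries 5.13 to 9.04 M (7.85 ± 1.56 M, SD, n = 5), without overlap. The difference gave p = 0.00794 in a two-sided exact permutation test of log10 totals, the smallest p that 5 against 5 allows. Pearson correlations of log2 CPM (counts scaled to library size) were 0.939 to 0.961 between controls, 0.924 to 0.980 between DFMO mice and 0.878 to 0.963 across the groups. On the first principal component, with 34.5% of the variance, controls lay between -39.5 and -19.4. DFMO mice D5747 and D5802 lay at 63.5 and 39.9, and D5806, D5823 and D135 between 11.7 and 15.8, so the DFMO group was not uniform. Defining genes of the labelled neuroblasts were present in every tumor of both groups. Footprints on Hand2 ran from 55.8 to 68.1 CPM in controls and 55.9 to 77.1 CPM under DFMO, and those on Th from 255 to 603 and from 231 to 606 CPM. Mycn read 345, 292, 376, 332 and 405 CPM in controls and 331, 294, 338, 281 and 329 CPM under DFMO, an overlapping pair of ranges (-0.15 ± 0.10 log2, adjusted p = 0.306, edgeR). The table does not tell the mouse gene from matching stretches of a transgene.

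Footprints on many genes differed under DFMO, most of them by modest amounts. Of 12095 genes tested with the edgeR quasi-likelihood test, 2186 passed an adjusted p of 0.05, which is 18.1%. Of these 1117 rose (9.24% of the genes tested) and 1069 fell (8.84%). The median change of called genes was 0.70 log2 upward and -0.61 log2 downward, and 305 rises and 215 falls reached 2-fold. The median over all genes tested was 0.02 log2. All 5 DFMO mice lay above all 5 controls for 730 genes (6.04%) and below them for 734 (6.07%). Without DFMO mice D5747 and D5802 the calls came to 1237, and without control mice C5840 and C5696, which carry most of the pancreatic footprints described below, to 849. After thinning every library to equal depth they came to 1505. In what follows, changes are log2 values ± SE, DFMO minus control, adjusted p values are from edgeR over all genes tested, and CPM are scaled to adjusted library totals. Values per mouse are given for controls in the order C5696, C5778, C5781, C5812 and C5840, and for DFMO in the order D5747, D5802, D5806, D5823 and D135.

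Among the controllers of ODC1, the antizyme inhibitor Azin1, which shields ODC1 from antizyme, rose. Azin1 (ENSMUST00000065308, chr15:38487427-38519266, minus strand) read 21.5, 34.3, 24.8, 23.1 and 21 CPM in controls. Under DFMO it read 39.3, 44.5, 56.9, 82.1 and 65.6 CPM. Every DFMO mouse stood above every control, and Azin1 rose by 1.19 ± 0.20 (adjusted p = 0.000691). Odc1 itself read 454, 470.4, 472, 438 and 498 CPM in controls and 379, 523, 699.6, 883 and 664 CPM under DFMO. In 4 DFMO mice the value was above all controls and in D5747 it was below them all, and the change of 0.43 ± 0.15 missed the threshold (adjusted p = 0.052). The other 3 genes of this list, the antizymes Oaz1 and Oaz2 and the second inhibitor Azin2, changed by -0.20 to 0.28 and were not called, so 1 of 5 tested members rose and 0 fell. Without D5747 or without D5802, 2 rose.

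In the branch that builds spermidine and spermine, the 11 tested genes gave 1 rise and 2 falls, with a median of -0.26. Amd1, the decarboxylase that supplies the aminopropyl group and whose leader frame is printed above, read 42.5, 87.3, 31, 74.1 and 39 CPM in controls and 61, 66.5, 111, 319.5 and 186 CPM under DFMO. The groups overlapped, with D5747 and D5802 inside the control range and D5806, D5823 and D135 above it. Amd1 rose by 1.42 ± 0.41 (adjusted p = 0.0248), and this call was lost without D5823 (0.94, adjusted p = 0.0687) or without C5696, C5781 or C5840 (1.28 to 1.35). Amd2, a near-identical copy, changed by 1.12 ± 0.40 (adjusted p = 0.0604), and reads shared by the pair cannot be assigned. The table counts a gene as a whole, so footprints on the leader frame are not seen apart from those on the main frame. Spermidine synthase Srm read 395, 349.9, 373, 448 and 369 CPM in controls and 257, 284, 367, 318 and 314 CPM under DFMO, where D5806 reached into the control range. Srm fell by 0.33 ± 0.11 (adjusted p = 0.0358), a call lost without any of D135, D5747, D5802, C5696, C5781 or C5812. Spermine synthase Sms changed by 0.17 ± 0.10 (adjusted p = 0.243). Ahcy, which clears S-adenosylhomocysteine, fell by 0.41 ± 0.13 (adjusted p = 0.0324), a call lost without D5747, D5802, C5696, C5781 or C5812. All 5 DFMO mice read lower on Ahcy, at 115, 174, 212, 197 and 199.8 against 229, 217, 277, 239 and 229 CPM.

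Of 10 tested genes of polyamine breakdown and transport, 0 rose and 2 fell. Paox, the peroxisomal oxidase that turns acetylated polyamines back toward putrescine, read 27, 19.2, 24.8, 27.8 and 23.3 CPM in controls and 14.8, 14.1, 13.3, 9.06 and 12.9 CPM under DFMO. No values overlapped, and Paox fell by 0.92 ± 0.17 (adjusted p = 0.00143). Slc3a2, the heavy chain of several amino acid exchangers that has also been linked to polyamine export, read 144, 148, 165, 146 and 162 CPM in controls and 137, 108, 101, 96.5 and 107 CPM under DFMO. D5747 was the highest DFMO mouse and still lay below all controls, and Slc3a2 fell by 0.48 ± 0.11 (adjusted p = 0.0047). The acetyltransferase Sat1, which starts breakdown, changed by -0.02 ± 0.22 (adjusted p = 0.96), and the putative uptake pump Atp13a3 by 0.35 ± 0.15 (adjusted p = 0.104).

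Of the 4 genes of hypusine synthesis, only the hydroxylase that finishes the modification was called. Dohh read 57.6, 47.2, 72, 60.4 and 69.1 CPM in controls and 34.9, 38, 45.1, 42.7 and 42.1 CPM under DFMO. All DFMO mice stood below all controls, and Dohh fell by 0.59 ± 0.12 (adjusted p = 0.00333). Eif5a, the factor that carries hypusine, was not called (adjusted p = 0.998), and Dhps, which makes the first step, changed by 0.06 ± 0.14 (adjusted p = 0.823). The 4 polyamine lists thus had 1 of 5, 3 of 11, 2 of 10 and 1 of 4 members called, small numbers whose shares lay near the 18.1% of all genes. Among 22 tested enzymes and transporters of arginine and proline, 1 rose and 3 fell, a share of calls also near 18.1%, and 5 fell without C5840. The arginine transporter Slc7a1 read 167, 179.9, 159, 137 and 154 CPM in controls and 102, 113, 131, 110.4 and 110.4 CPM under DFMO, without overlap, and fell by 0.49 ± 0.10 (adjusted p = 0.00212). Aldh18a1, the entry enzyme from glutamate to proline and ornithine, fell by 0.54 ± 0.14 (adjusted p = 0.00968).

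**Figure D1:**
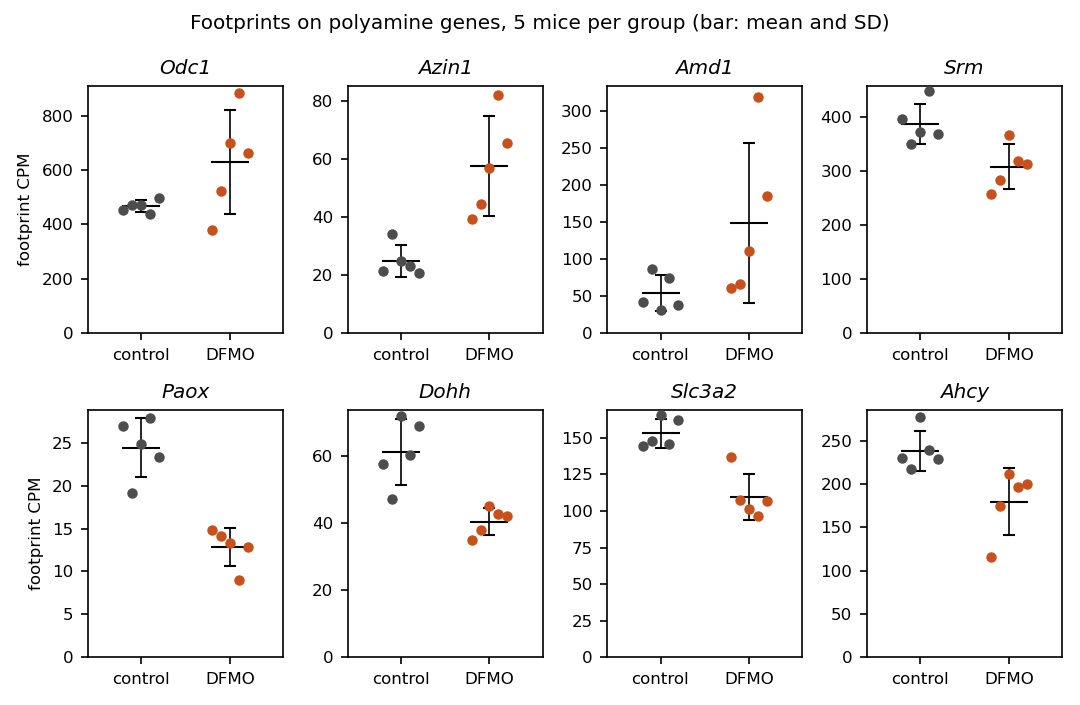
Footprints on 8 polyamine genes. The y axis gives footprint CPM from 0, each point is a mouse (5 controls, 5 under DFMO) and bars give the mean and SD. Azin1 lay above all controls and Paox, Dohh and Slc3a2 below all controls in every DFMO mouse, whereas Odc1 and Amd1 spread widely within the DFMO group.

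Footprints on genes that assemble ribosomes were lower. Of 40 tested genes of large subunit assembly 19 fell and 0 rose, with a median of -0.32 and 35 of 40 values below 0. Of 34 genes of the small subunit processome, which cuts and folds the early ribosomal RNA, 11 fell and 0 rose, with a median of -0.26. Beside these counts, 8.84% of all genes fell and the median of all genes was 0.02. The box C/D and H/ACA particles gave 1 rise and 2 falls among 14, and RNA polymerase I machinery 1 rise and 3 falls among 13. Of the latter 3, 1 fell without D5747, without D5802 or without any control mouse but C5778.

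Ddx21 (ENSMUST00000045866, chr10:62580251-62602281, minus strand), a nucleolar helicase of ribosomal RNA synthesis, read 318, 287, 330.1, 310.0 and 360.3 CPM in controls. Under DFMO it read 127, 149, 205, 207 and 209 CPM. The groups did not overlap, D5747 and D5802 were lowest, and Ddx21 fell by 0.84 ± 0.15 (adjusted p = 0.000889). Nop2, a methyltransferase of the large subunit RNA, read 156, 139.8, 154, 154 and 159 CPM in controls and 90.3, 79.3, 113, 92.1 and 101 CPM under DFMO. Again no value overlapped, and Nop2 fell by 0.68 ± 0.12 (adjusted p = 0.000977). The helicase Ddx54 read 94.1, 72, 79.8, 104 and 93.6 CPM in controls and 41.9, 42.6, 61.9, 49.4 and 56.2 CPM under DFMO and fell by 0.81 ± 0.13 (adjusted p = 0.00035), with the groups apart. Pes1, of the complex that processes the large subunit RNA, fell by 0.44 ± 0.10 (adjusted p = 0.00584). In the small subunit processome, Wdr46 read 90.9, 70.0, 78.2, 97.6 and 97.2 CPM in controls and 51.6, 48, 60.6, 59.4 and 60.8 CPM under DFMO. It fell by 0.63 ± 0.12 (adjusted p = 0.00178) without overlap, and Nol6, Pdcd11 and Pwp2 of the same particle changed by -0.55, -0.65 and -0.62 (adjusted p from 0.00177 to 0.00458).

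The size of this fall differed between mice. The median departure of the large subunit assembly genes from the control mean was -0.55 in D5747 and -0.52 in D5802, and -0.13, -0.28 and -0.21 in D5806, D5823 and D135. Without D5747 and D5802, 7 of the 40 genes fell, with a list median of -0.24. Without C5840 and C5696 6 did, with a median of -0.325, beside -0.323 in the full fit. Leaving out D5802 alone gave 12. For the small subunit processome the counts were 7 and 3 without those pairs of mice. Falls over all genes also came down in the fits without a pair, from 1069 to 574 and 449.

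The E-box CACGTG is a palindrome, so a match reads on both strands. It was searched in 300 bases, from 250 before to 50 after the start. A promoter was found for 9563 of the 12095 tested genes, and 11.7% of these held the E-box (7.15% of all 32851 promoters in the table). It stood in 14.0% of promoters of genes that fell and in 11.0% of those that rose. Among large subunit assembly genes 6 of 32 promoters held it and among small subunit processome genes 7 of 28, which is 18.75% and 25.0%. It stood in 2 of 13 promoters of RNA polymerase I machinery, neither of them of a gene that fell, and in 0 of 11 promoters of the box C/D and H/ACA particles. Of the called genes, the promoters of Pes1, Mdn1, Nop2, Rpf2, Utp18, Utp20 and Wdr46 held it, at 60 bases before the start in Nop2 and 12 bases before it in Wdr46. Genes not called held it too, which were Nle1, Sdad1, Utp4, Wdr43, Imp4 and Nol11 in these 2 lists. In large subunit assembly that made 4 of 17 called and 2 of 15 not called, and in the processome 3 of 9 and 4 of 19.

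Ribosomal proteins themselves did not fall as a group. Of 46 tested proteins of the large subunit 8 rose and 3 fell, with a median of 0.02, and of 32 of the small subunit 4 rose and 3 fell, with a median of 0.05. Over all genes tested, 18.1% were called, 9.24% up and 8.84% down. Rpl34 read 909, 1148, 1096, 1004 and 1081 CPM in controls and 1428, 1492, 1626, 1895 and 1495 CPM under DFMO and rose by 0.60 ± 0.12 (adjusted p = 0.00242), with the groups apart. Rpl19 went the other way, from 5562, 5387, 5366, 5139.7 and 5280.3 CPM to 3110.4, 3538, 4081, 4103 and 3601 CPM, also apart, and fell by 0.54 ± 0.11 (adjusted p = 0.002). Rps27 rose by 0.63 ± 0.13 (adjusted p = 0.00276) and Rps9 fell by 0.46 ± 0.12 (adjusted p = 0.00989). These genes have many processed copies in the genome, and reads shared with a copy are uncertain. The mice disagreed here too. The list median for the small subunit was -0.59 in D5747, -0.07 in D5802, 0.19 in D5806, 0.45 in D5823 and 0.14 in D135, and the summed proteins of the large subunit were lowest of all 10 mice in D5747 at 56649 CPM and highest in D5823 at 92639 CPM. Which mice entered set the counts. Without D5747 and D5802, 15 proteins of the large subunit and 13 of the small subunit rose, and without C5840 and C5696 2 and 2 did. Rises over all genes came down from 1117 to 663 and 400 in these fits. Of the large subunit, 2 rose without D5823 alone or C5696 alone, 3 without C5778, 4 without D135 or C5781 and 5 without C5840. Of the small subunit, 10 rose without D5747 alone.

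The enzymes that charge tRNAs were mostly lower. Of 22 tested cytosolic aminoacyl-tRNA synthetases and their scaffolds, 13 fell and 2 rose, with a median of -0.31. Over all genes tested, 8.84% fell and 9.24% rose. Tars, the threonyl enzyme (ENSMUST00000022849, chr15:11382301-11399665, minus strand), read 125, 109, 109.6, 100.0 and 115 CPM in controls and 60.8, 57.4, 92.6, 73.1 and 76.2 CPM under DFMO. All DFMO mice were below all controls, and Tars fell by 0.63 ± 0.11 (adjusted p = 0.000785). Vars, the valyl enzyme, read 569, 469.9, 536, 531 and 540.5 CPM in controls and 249.8, 269, 397, 353 and 379 CPM under DFMO and fell by 0.68 ± 0.13 (adjusted p = 0.00177), without overlap. Aars, Mars1 and Cars changed by -0.42, -0.57 and -0.66 (adjusted p from 0.00195 to 0.00476). The 2 that rose were Dars, at 0.30 ± 0.10 (adjusted p = 0.0428), and Wars, at 0.32 ± 0.10 (adjusted p = 0.0285). Neither rise was called without D5747, D5802, C5696, C5781 or C5840, nor with sex as a covariate. Leaving out D5747 and D5802 left 10 falls, and leaving out C5840 and C5696 left 9. In this list 4 of 15 genes with a promoter held the E-box, which were Aars, Farsb, Iars and Tars (26.7%).

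Initiation factors gave 4 rises and 10 falls among 38. Eif3b, a core subunit of the factor that brings the small subunit to the messenger, read 373, 383, 332, 397 and 365 CPM in controls and 221, 217, 283, 265 and 282 CPM under DFMO. It fell by 0.54 ± 0.09 (adjusted p = 0.00067) with no overlap. Eif1, which guards start codon choice, rose by 0.51 ± 0.13 (adjusted p = 0.00952), and Eif2s3x, a subunit of the factor that carries the initiator tRNA, rose by 0.58 ± 0.14 (adjusted p = 0.00608). Without D5747 and D5802, and likewise without C5840 and C5696, 4 initiation factors fell, and 6 did without D5802 alone or C5840 alone. The rises came to 2 without D5802, D5823 or C5812. Elongation and termination factors gave 0 rises and 3 falls among 14, beside 18.1% of all genes called, and 1 fall without D5747, D5802 or any 1 control mouse.

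**Figure D2:**
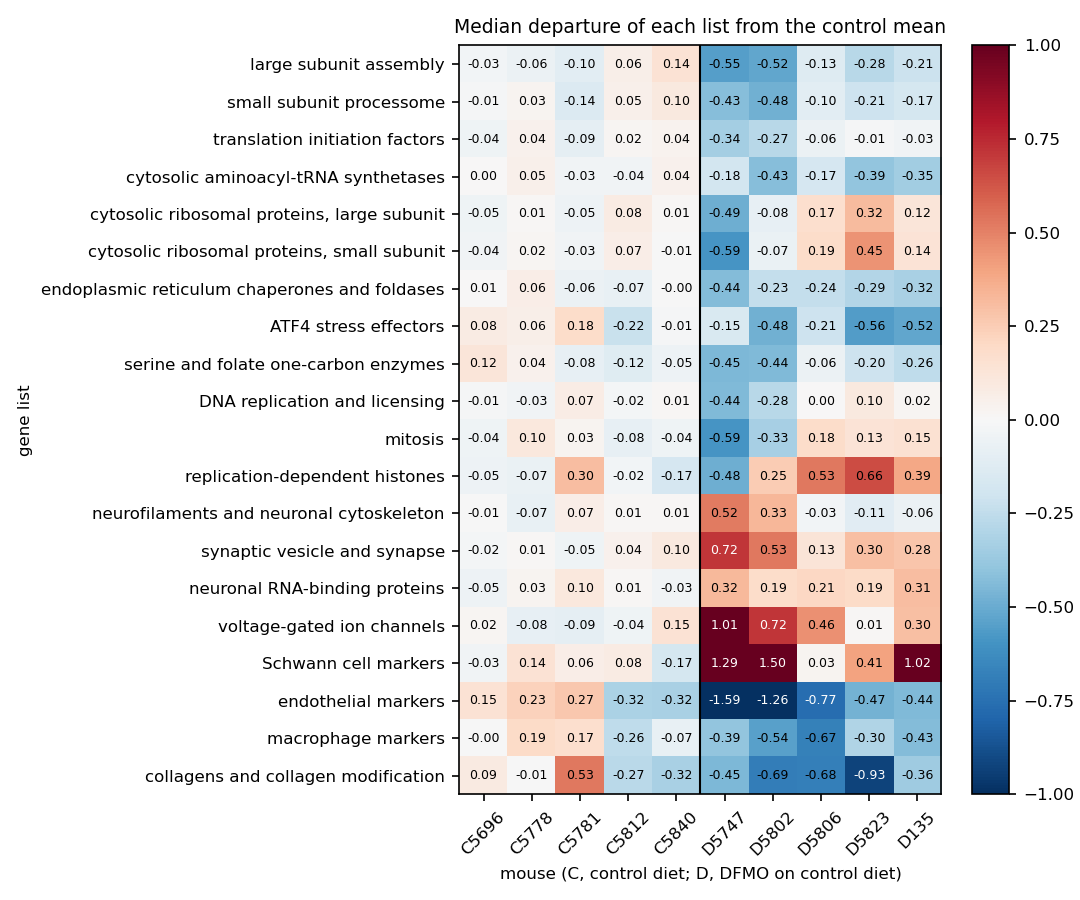
Median departure of 20 gene lists from the control mean, in log2 CPM, for each of the 10 mice (columns) and each list (rows). Ribosome assembly was lowest in D5747 and D5802 at -0.55 and -0.52, chaperones of the endoplasmic reticulum were low in all 5 DFMO mice, and ribosomal proteins and mitosis genes had opposite signs in D5747 and D5823.

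Chaperones and foldases of the endoplasmic reticulum were lower in every DFMO mouse. Of 26 tested members 11 fell and 0 rose, with a median of -0.32, against 8.84% of all genes that fell. The list median per mouse ran from -0.44 in D5747 to -0.23 in D5802. Hspa5 (BiP, ENSMUST00000028222, chr2:34771970-34777547, plus strand), the central chaperone of this compartment, read 617, 697, 528, 562 and 591 CPM in controls and 411, 406, 444, 425 and 472 CPM under DFMO. No value overlapped, and Hspa5 fell by 0.47 ± 0.09 (adjusted p = 0.00204). Hyou1, which exchanges nucleotide on BiP, read 209, 240.5, 225, 208 and 244 CPM in controls and 127, 146, 148, 139.9 and 149.5 CPM under DFMO and fell by 0.67 ± 0.10 (adjusted p = 0.00021). Its DFMO values lay close together and below every control. Manf, a secreted partner of BiP, read 137, 113, 113, 124 and 91.3 CPM in controls and 48.6, 71.7, 77.1, 70.0 and 66.8 CPM under DFMO and fell by 0.79 ± 0.13 (adjusted p = 0.0004). The lectin chaperone Calr fell by 0.49 ± 0.09 (adjusted p = 0.00173), and Hsp90b1, Pdia4, Pdia6 and the degradation lectin Edem1 changed by -0.45, -0.47, -0.42 and -0.80. This count was steadier than that for ribosome assembly: 10 fell without D5747 and D5802, and 9 without C5840 and C5696.

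The ER stress element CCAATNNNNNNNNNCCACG, searched on both strands over the same 300 bases, stood in 0.188% of promoters of tested genes, or 18 genes, and in 0.119% of all promoters in the table. Of 21 promoters in the chaperone list 8 held it (38.1%). Of these, 4 belong to genes that fell, Hspa5, Hsp90b1 (2 copies), Calr and Pdia6, and 4 to genes that were not called, Canx, Dnajc3, Creld2 and Syvn1. The copies begin 65 bases before the RefSeq start in Hspa5 and 98 before it in Pdia6. The GENCODE start of the Hspa5 transcript given above lies within the printed stretch and upstream of the element. Such a match describes letters only and shows no binding.

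Genes downstream of ATF4, the factor of the amino acid and integrated stress responses, gave 0 rises and 7 falls among 26, with a median of -0.36. Of all genes tested, 8.84% fell. The ATF4 falls came to 11 without D5806 and 6 without D135. They came to 7 without D5747 and D5802, 5 without C5840 and C5696, and 5 after thinning to equal depth. The glutamine transporter Slc1a5 read 11.9, 14.4, 20.3, 15.1 and 10.6 CPM in controls and 7.4, 6.11, 7.04, 4.46 and 10.0 CPM under DFMO. All DFMO mice were below all controls, and Slc1a5 fell by 1.03 ± 0.22 (adjusted p = 0.00305). Ddit4, an inhibitor of mTORC1, fell by 0.82 ± 0.18 (adjusted p = 0.00361), and the factor Cebpb fell by 0.95 ± 0.21 (adjusted p = 0.00427). Cytosolic heat shock chaperones gave 1 rise and 7 falls among 20. The abundant Hsp90ab1 read 5419.7, 5329, 4969, 5036 and 5508 CPM in controls and 2744, 3065, 3865, 3727 and 3928 CPM under DFMO, apart, and fell by 0.60 ± 0.11 (adjusted p = 0.00152). Inducible Hspa1a read 27, 8.4, 13.6, 22.5 and 94.2 CPM in controls and 3.06, 3.15, 4.35, 6.04 and 9.82 CPM under DFMO, and fell by 2.64 ± 0.59 (adjusted p = 0.00692). C5840 was far above the other controls on Hspa1a and the highest DFMO mouse, D135, reached above C5778. Hspa1b is nearly identical in sequence, so the pair is uncertain one by one. Pfdn5, a subunit of the prefoldin that feeds new actin and tubulin to the chaperonin, rose by 0.64 ± 0.09 (adjusted p = 0.000242). It read 64.4, 64.2, 67, 60.4 and 58.5 CPM in controls and 87.4, 97.8, 94.1, 107 and 103 CPM under DFMO. The list of chaperonin and prefoldin subunits held 3 rises and 0 falls among 13, with a median of -0.05 and 8 values below 0. Without D5823, 2 rose. Without D5747 and D5802, and without C5840 and C5696, 3 and 2 heat shock chaperones fell.

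Serine and folate enzymes gave 0 rises and 4 falls among 18, with a median of -0.31. Beside the lists of this paragraph, 18.1% of all genes were called and 8.84% fell. Shmt2, which makes mitochondrial glycine and one-carbon units from serine and is a known target of both MYC and ATF4, read 186, 175, 209, 149.96 and 169.8 CPM in controls and 31.9, 54.6, 121, 116 and 104 CPM under DFMO. It fell by 1.06 ± 0.26 (adjusted p = 0.0103), with D5747 and D5802 lowest and no overlap. Mthfd1l, a neighbour of Shmt2 in the mitochondrial pathway, fell by 0.75 ± 0.12 (adjusted p = 0.000362), and the glycine decarboxylase Gldc fell by 0.87 ± 0.20 (adjusted p = 0.00476). Nucleotide synthesis gave 0 rises and 6 falls among 27. Cad, the first enzymes of pyrimidine synthesis, read 550.2, 447, 505, 534 and 579 CPM in controls and 252, 263, 409, 358 and 418 CPM under DFMO and fell by 0.62 ± 0.15 (adjusted p = 0.00804). The groups did not overlap, but 0 of the 27 fell without D5747 and D5802, and 0 without C5840 and C5696. Left out alone, D5802 left 2 falls, and D5747, C5812 and C5840 each left 3. Glycolysis gave 1 rise and 5 falls among 21. Hexokinase Hk2 read 45.2, 47, 59.97, 61.7 and 63.2 CPM in controls and 18.4, 25.7, 32.9, 25 and 35.4 CPM under DFMO, apart, and fell by 1.01 ± 0.19 (adjusted p = 0.00182).

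Subunits of the respiratory chain leaned upward. Complex I gave 9 rises and 2 falls among 37, and complexes II to IV 7 rises and 0 falls among 25. Beside the lists of this paragraph, 9.24% of all genes rose and 8.84% fell. Ndufb4 read 138, 139, 140.2, 147 and 150.04 CPM in controls and 250.5, 219, 242, 270.1 and 218 CPM under DFMO and rose by 0.75 ± 0.14 (adjusted p = 0.00157). Cox7b read 77.7, 106, 80.2, 89.6 and 87.7 CPM in controls and 118, 145, 147, 173 and 146 CPM under DFMO and rose by 0.72 ± 0.13 (adjusted p = 0.00108). In both genes the lowest DFMO mouse exceeded the highest control. The medians of the lists were 0.08 and 0.09, beside 0.02 over all genes tested. Complex I kept 6 rises without D5747 and 5 in either fit without a pair of mice. Complexes II to IV gave 4 without D5802, C5781 or C5840, 4 without D5747 and D5802, and 2 without C5840 and C5696. Among 33 lysosome and autophagy genes 2 rose and 8 fell. Psap, the precursor of the saposins, read 1436, 1789, 1379, 1111 and 1119 CPM in controls and 745, 736, 826, 777 and 807 CPM under DFMO and fell by 0.81 ± 0.11 (adjusted p = 0.000197), without overlap. The protease Ctsb fell by 0.74 ± 0.12 (adjusted p = 0.000612), and Map1lc3a, which coats autophagosomes, rose by 1.01 ± 0.16 (adjusted p = 0.000379). Macrophage markers, which moved the same way, are given below, and their part in the lysosomal falls was not tested.

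Proliferation genes were not called more often than genes at large. DNA replication and licensing gave 1 rise and 1 fall among 40, mitosis 2 rises and 2 falls among 52, and replication-dependent histones 0 of 26, against 18.1% called over all genes. Histone values leaned upward, with a median of 0.33 and 22 of 26 above 0, and 14 histones rose without D5747 and 15 without D5747 and D5802. The mice pointed in different directions. For mitosis genes the median departure was -0.59 in D5747 and -0.33 in D5802, and 0.18, 0.13 and 0.15 in the other DFMO mice. Leaving out D5747 and D5802 gave 6 rises among the mitosis genes, and leaving out D5747 alone gave 5. Ube2c, the ubiquitin-conjugating enzyme of mitotic exit, illustrates the split, reading 170.0, 310.1, 321, 327 and 302 CPM under DFMO against 185, 218, 226, 208 and 204 CPM in controls. Only D5747 was below the controls. Around MYCN, the ubiquitin ligase subunit Fbxw7, which marks MYC proteins for destruction, read 22.4, 22.8, 17.8, 17.8 and 18 CPM in controls and 48.7, 46.9, 27.4, 39 and 30.5 CPM under DFMO. No value overlapped, and Fbxw7 rose by 0.96 ± 0.19 (adjusted p = 0.00242). The kinase Pim1 fell by 0.90 ± 0.20 (adjusted p = 0.00489). Igf2bp3, an RNA-binding protein of embryonic and tumor cells, read 12.3, 24.8, 21.1, 1.01 and 13.6 CPM in controls and 0.0986, 1.67, 0.768, 0.263 and 5.08 CPM under DFMO. C5812 stood apart from the other controls and below D5802 and D135, and Igf2bp3 fell by 3.20 ± 0.80 (adjusted p = 0.0119).

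The 12 largest rises with groups fully apart included Scg2, Mapt and Gfra2, by amounts that depended on the mouse. Scg2, a granin of dense-core vesicles (ENSMUST00000049972, chr1:79434669-79440120, minus strand), read 5.03, 3.23, 2.9, 3.35 and 7.68 CPM in controls. Under DFMO it read 119, 47.4, 17.8, 30.7 and 19.3 CPM. Every DFMO mouse was above every control, D5747 was the highest, and Scg2 rose by 3.40 ± 0.60 (adjusted p = 0.00186). Tau, Mapt, read 16.5, 9.27, 14.1, 9.06 and 11.2 CPM in controls and 137, 75.2, 25.7, 35.2 and 29.5 CPM under DFMO and rose by 2.37 ± 0.44 (adjusted p = 0.00219), again with D5747 and D5802 highest. Gfra2, the neurturin co-receptor, read 5.03, 3.02, 4.55, 4.03 and 4.13 CPM in controls and 18.8, 13.2, 11.5, 44.5 and 23 CPM under DFMO. Here D5823 was highest, the groups did not overlap, and Gfra2 rose by 2.46 ± 0.34 (adjusted p = 0.00021).

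The peptide gene Vip had no count in any of the 5 controls and 95.1, 26.7, 6.4, 3.41 and 2.03 CPM under DFMO. It was at least 158-fold higher, against a floor of 3 counts over the control group, and its call (adjusted p = 0.0152) was lost without mouse P5785, which belongs to neither group but enters the shared spread. Tcf24, a basic helix-loop-helix factor, had 1 count in the controls together and 892 under DFMO. The ratio of summed levels was 352, with a 95% interval of 63.0 to 13921 that covers counting error only. Both genes were on in all 5 DFMO mice, Vip most in D5747 and Tcf24 most in D5823.

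The RNA-binding proteins of neurons varied less between mice. Of 17 tested, 8 rose and 1 fell, with a median of 0.27, beside 9.24% of all genes up and 8.84% down. Elavl4 (HuD, ENSMUST00000106600, chr4:110203737-110290272, minus strand), which stabilises neuronal messengers, read 51.2, 51.1, 58.7, 50.3 and 39.6 CPM in controls. Under DFMO it read 134, 127, 72.2, 136 and 119.6 CPM. D5806 was the lowest and still above the controls, and Elavl4 rose by 1.23 ± 0.17 (adjusted p = 0.00017). The splicing regulator Ptbp2 read 109, 119, 109, 93.3 and 86.5 CPM in controls and 160.4, 175, 135.1, 155 and 158 CPM under DFMO and rose by 0.60 ± 0.14 (adjusted p = 0.00655). Celf4 rose by 0.69 ± 0.14 (adjusted p = 0.00237), and Elavl2 rose by 0.68 ± 0.16 (adjusted p = 0.00544). The list median per mouse ran from 0.19 to 0.32. Without D5747 and D5802, 4 rose, and without C5840 and C5696 2 did. Leaving out D5747, C5696 or C5840 alone left 5.

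Neuronal cytoskeleton gave 6 rises and 0 falls among 25, synaptic genes 6 and 1 among 32, and axon adhesion and guidance 7 and 0 among 37. Of all genes tested 18.1% were called, 9.24% up and 8.84% down. Fewer genes of these lists rose without 2 mice. With D5747 and D5802 left out, the cytoskeleton list had 4 rises and 2 falls, and its median turned from 0.12 to -0.10. Synaptic genes then gave 3 rises and axon genes 5, and 3 rises each without C5840 and C5696. Dpysl3, a collapsin response mediator of growth cones, read 83.2, 68.5, 87.3, 94.6 and 83.9 CPM in controls and 697, 334, 128, 159.7 and 146 CPM under DFMO and rose by 1.81 ± 0.37 (adjusted p = 0.00427). Plxna4, a semaphorin receptor, read 18.3, 18.3, 25.2, 19.1 and 15.7 CPM in controls and 37.8, 40.8, 27.9, 50.3 and 50.3 CPM under DFMO and rose by 1.11 ± 0.16 (adjusted p = 0.000202). In both genes all DFMO mice exceeded all controls. The synaptic vesicle protein Rab3c rose by 0.88 ± 0.20 (adjusted p = 0.00454) and synapsin Syn1 rose by 0.54 ± 0.14 (adjusted p = 0.0117). Voltage-gated ion channels gave 8 rises and 1 fall among 27, with a median of 0.47, and this count rested on single mice: 1 channel rose without D5747, 1 without D5802, 1 without both, and 1 without C5840 and C5696. Without any 1 control it was 2 (C5812) to 5 (C5696 or C5840). Scn7a shows the pattern, at 3.66, 3.02, 3.31, 4.03 and 3.84 CPM in controls and 63.8, 30.9, 8.71, 4.2 and 8.35 CPM under DFMO, with D5823 close to the highest control (2.71 ± 0.65, adjusted p = 0.0101).

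Markers of Schwann cells, the glia of nerves, stood beside the neuronal rises in the same mice. Of 16 markers, 15 were in the table and 7 could be tested. While 9.24% of all genes rose and 8.84% fell, 3 of the 7 markers rose and 0 fell. Their summed footprints were 63.5 to 86.0 CPM in controls, 207 in D5747, 121 in D5802 and 83.6 to 90.3 CPM in the other DFMO mice. Fabp7 read 0.457, 0.431, 1.24, 1.01 and 0 CPM in controls and 33.7, 13, 3.84, 2.36 and 3.05 CPM under DFMO (4.22 ± 0.89, adjusted p = 0.00439). D5747 and D5802 were the highest, and none of the 15 markers was at 0 in all 10 mice. The part of these cells in the neuronal rises was not tested. Over the same mice, the median of the synaptic list was 0.72 in D5747, 0.53 in D5802, and 0.13, 0.30 and 0.28 in D5806, D5823 and D135.

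Not all neural genes rose. The gene with the smallest p among the falls was Nptx2 (ENSMUST00000071782, chr5:144545902-144557478, plus strand), a pentraxin that neurons secrete at excitatory synapses. It read 62.6, 51.3, 64.1, 84.5 and 62.6 CPM in controls and 8.58, 8.15, 15.1, 8.4 and 15.1 CPM under DFMO. The lowest control was over 3-fold above the highest DFMO mouse, and Nptx2 fell by 2.54 ± 0.23 (adjusted p = 2.28e-06). Chromogranin A, Chga (ENSMUST00000021610, chr12:102554969-102565028, plus strand), the granin of chromaffin granules, read 318, 309, 268, 353 and 383 CPM in controls and 119, 132, 134.9, 167 and 139 CPM under DFMO. It fell by 1.24 ± 0.13 (adjusted p = 9.87e-06) without overlap, against the direction of Scg2, and Chgb fell by 0.75 ± 0.14 (adjusted p = 0.00122). Eid1, an inhibitor of the acetyltransferases CBP and p300, read 272, 233, 243, 268 and 229.8 CPM in controls and 96.5, 121, 142, 102 and 98.1 CPM under DFMO and fell by 1.16 ± 0.12 (adjusted p = 9.87e-06). The T-box factor Tbx20 read 9.6, 5.17, 7.44, 13.8 and 11.5 CPM in controls and 1.68, 0.926, 0.256, 0.131 and 0.339 CPM under DFMO and fell by 3.75 ± 0.44 (adjusted p = 3.94e-05). Among the smallest p of the rises were Ube2n, the enzyme that builds K63-linked ubiquitin chains, at 109.7, 128, 119, 136 and 136 CPM in controls and 194, 246, 253, 335 and 284 CPM under DFMO (1.06 ± 0.14, adjusted p = 9.77e-05), and Fam168b (1.03 ± 0.13, adjusted p = 9.77e-05). Neuroblastoma core regulatory factors gave 2 rises and 3 falls among 22, with Eya1 at 0.71 ± 0.17 (adjusted p = 0.00606) and Sox11 at -0.43 ± 0.13 (adjusted p = 0.0231). The Sox11 call was lost without C5781 or C5812. Counts of this list, beside 18.1% of all genes called, rested on single mice: 0 fell without C5781, and 5 rose without D135 or D5806.

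**Figure D3:**
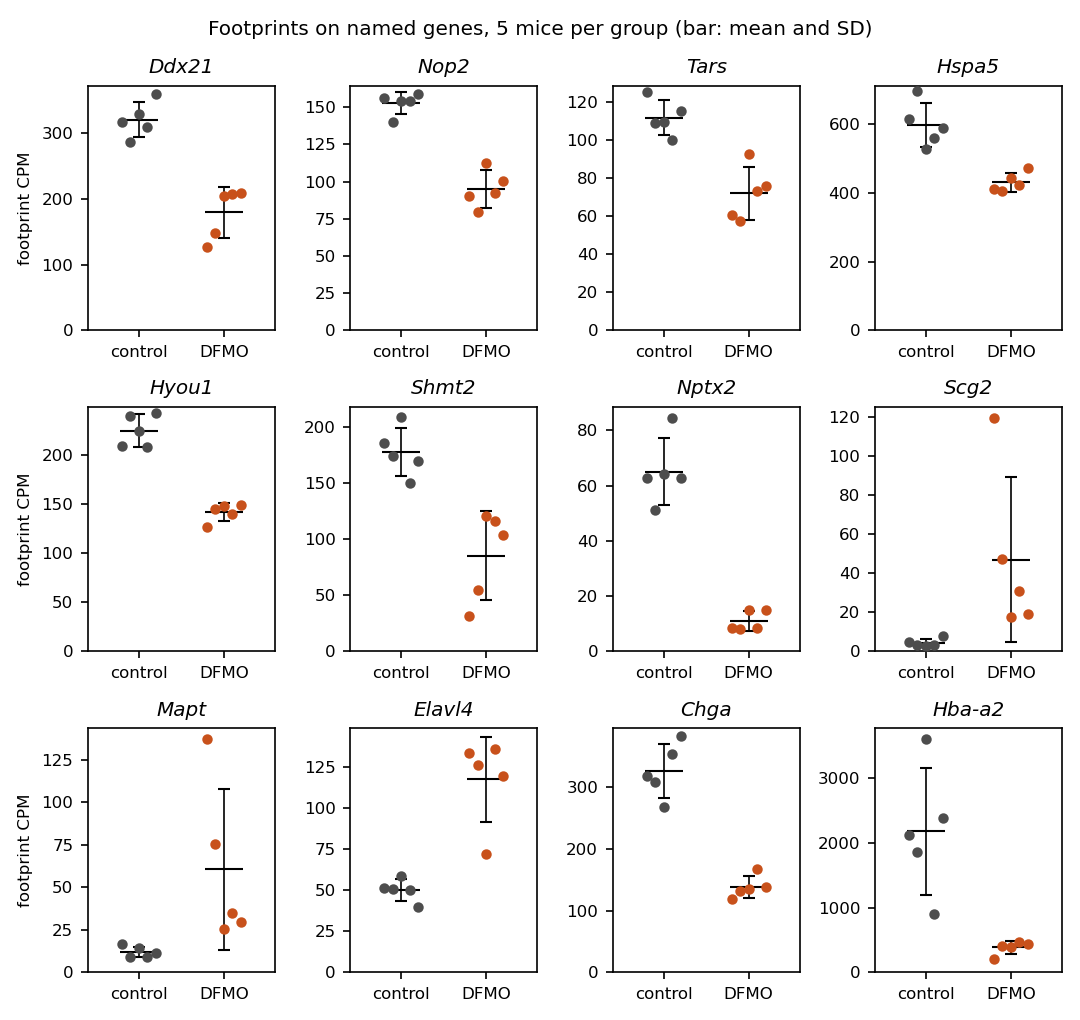
Footprints on 12 named genes in the 10 mice. The y axes give footprint CPM from 0, points are mice, and bars are means and SD of 5 mice. Nptx2, Chga, Hyou1 and Hspa5 were tightly lower under DFMO, whereas the rises of Scg2 and Mapt were led by 2 mice that read 119 and 47.4 CPM on Scg2.

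Lists of several other cell types were lower under DFMO, but not all of them. Beside these lists, 9.24% of all genes rose and 8.84% fell. Schwann cell markers, given above, had rises only. Pericyte and fibroblast markers were mixed, with 2 rises and 4 falls among 20 and 7 values above 0. Their summed footprints overlapped, at 1496 to 3157 CPM in controls and 1206 to 2545 CPM under DFMO. Without C5781 0 of them fell, and without C5840 0 rose. Of 22 tested endothelial markers 9 fell and 0 rose, with a median of -0.90 and all 22 values below 0. Their summed footprints were 225 to 373 CPM in controls and 89.3 to 214 CPM under DFMO, without overlap, and none of the 24 markers was at 0 in all 10 mice. Plvap, of endothelial fenestrae, read 45.7, 58, 55, 34.9 and 36 CPM in controls and 11.4, 15, 19.6, 28.2 and 24.9 CPM under DFMO and fell by 1.21 ± 0.21 (adjusted p = 0.000968). Flt1, a receptor for vascular growth factor, fell by 0.94 ± 0.17 (adjusted p = 0.00138). The count was 3 without D5747 and D5802 and 5 without C5840 and C5696, with medians of -0.65 and -0.98. Collagens and their modifying enzymes gave 0 rises and 11 falls among 25. The basement membrane collagen Col4a1 read 499, 406, 548, 297 and 423 CPM in controls and 179.8, 155, 191, 179 and 269 CPM under DFMO, apart, and fell by 1.15 ± 0.30 (adjusted p = 0.0142). The collagen list had a median of -0.58. Its count came to 2 without D5747 and D5802 and to 4 without C5840 and C5696, where the medians were -0.69 and -0.71. It came to 4 without C5781 alone, and to 5 to 7 without D5747, D5802, D5806, D5823, C5696 or C5778 alone. Falls over all genes came down from 1069 to 574 and 449 in the fits without a pair of mice.

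Of 19 tested macrophage markers 11 fell and 0 rose, with a median of -0.46, against 8.84% of all genes that fell. The summed footprints of the markers were 800.5 to 1187 CPM in controls and 623 to 749 CPM under DFMO, without overlap. Adgre1, the F4/80 surface protein of macrophages, read 23.8, 41.8, 29.4, 19.5 and 19.2 CPM in controls and 14.6, 13.2, 14.3, 18 and 15.3 CPM under DFMO and fell by 0.83 ± 0.21 (adjusted p = 0.00951). The complement gene C1qb read 111, 118, 116, 95.9 and 115 CPM in controls and 84.4, 75.9, 68, 94.6 and 82.6 CPM under DFMO and fell by 0.45 ± 0.10 (adjusted p = 0.00491). For both genes the groups were apart. The call count was 8 without D5747 and D5802 and 7 without C5840 and C5696. Neutrophil, T and B cell markers were too sparse to describe as lists, with 1, 1 and 2 genes tested.

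Hemoglobin footprints were among the largest falls in CPM. Hba-a2 read 2117, 1864, 3606, 907 and 2392 CPM in controls and 212, 409, 396, 477 and 437 CPM under DFMO, and fell by 2.49 ± 0.43 (adjusted p = 0.00154). Every DFMO mouse was below every control. Hba-a1, Hbb-bs and Hbb-bt, whose sequences are near copies within each pair, changed by -2.47, -2.46 and -2.46. Of 8 tested erythroid genes 6 fell, against 8.84% of all genes tested. The list sum was 3761 to 13510 CPM in controls and 984 to 2017 CPM under DFMO. The factor Gata1 was at 0 in all 10 mice. Red cells carry these messengers, and the blood content of the tumors was not measured. Fewer such cells and less messenger per cell cannot be told apart.

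Genes of the exocrine pancreas stood among the largest falls, through the control mice. Try4 read 33.8, 7.97, 4.96, 11.4 and 140.3 CPM in controls and 0.394, 0, 0.256, 0.788 and 1.13 CPM under DFMO (-6.14 ± 1.24, adjusted p = 0.00433), and Ctrb1 113, 15.1, 13.6, 23.8 and 484 and 1.48, 5.19, 2.31, 1.84 and 10.2 CPM. C5840 was far above all other mice on both genes, and C5696 was next. The 14 acinar markers summed to 2217 CPM in C5840 and 442 CPM in C5696, with 69.1 to 159 CPM in the remaining controls, against 14.6 to 71.9 CPM under DFMO. Of the 14, 12 fell, 3 without C5840 and 0 without C5840 and C5696, and none was at 0 in all 10 mice. Trypsin genes are many and alike, so their values one by one are uncertain.

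The same drug on the diet without proline and arginine was measured in 10 other mice (5 with DFMO, 5 without), none of them in the groups above. There 3489 genes were called, 28.8% of the genes tested, with 1792 up and 1697 down. Of the 2186 genes called on the control diet, 1998 had the same sign on the other diet, or 91.4%, against 67.6% of the genes not called. The genes called in the same direction on both diets numbered 1190, which is 54.4% of the calls on the control diet and 34.1% of those on the other, and 34 were called in opposite directions. Of these 34, 12 were acinar markers. Azin1 changed by 1.47 there (adjusted p = 3.92e-05), Amd1 by 2.32 (adjusted p = 0.000887), Ddx21 by -0.98 (adjusted p = 9.33e-05) and Nptx2 by -3.06 (adjusted p = 1.14e-07).

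Some lists had many calls on one diet and few on the other. On the diet, mitosis gave 26 falls and replication 20, against 2 and 1 on the control diet. Large subunit assembly gave 27 against 19 and the small subunit processome 27 against 11. For chaperones of the endoplasmic reticulum it was the reverse, with 2 falls and 5 rises on the diet and 11 falls and 0 rises on the control diet. Of all genes tested, 14.0% fell on the diet and 8.84% on the control diet. Hyou1 changed by -0.15 (adjusted p = 0.241) and Hspa5 by -0.07 (adjusted p = 0.621) on the diet. The test of the difference itself did not call any gene of those 5 lists, so none of them was shown to respond differently. For Hyou1 the difference was 0.52 ± 0.13 (adjusted p = 0.105).

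That test called 45 genes, which is 0.372% of those tested, while 1608 had an unadjusted p under 0.05. In 31 of the 45, over 50% of the control footprints came from C5840, and 14 are the acinar markers, so the pancreatic signal of a few tumors leads this list. It held 0 genes without C5840 and C5696, and 0 without mouse P5785. Among the rest was Chga, whose values on the control diet are given above. Chga changed by -0.20 on the diet (adjusted p = 0.268), and the difference was 1.04 ± 0.19 (adjusted p = 0.0143). Chosen after their values were seen, Syt1, the calcium sensor of synaptic release, fell on the control diet (-0.45 ± 0.13, adjusted p = 0.0185) and rose on the other (0.48, adjusted p = 0.00646), with a difference of 0.93 ± 0.18 (adjusted p = 0.0143), and Angpt2, an antagonist of the endothelial receptor Tie2, fell by 1.46 ± 0.27 (adjusted p = 0.00155) and changed by 0.27 on the diet (adjusted p = 0.0362 for the difference).

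**Figure D4:**
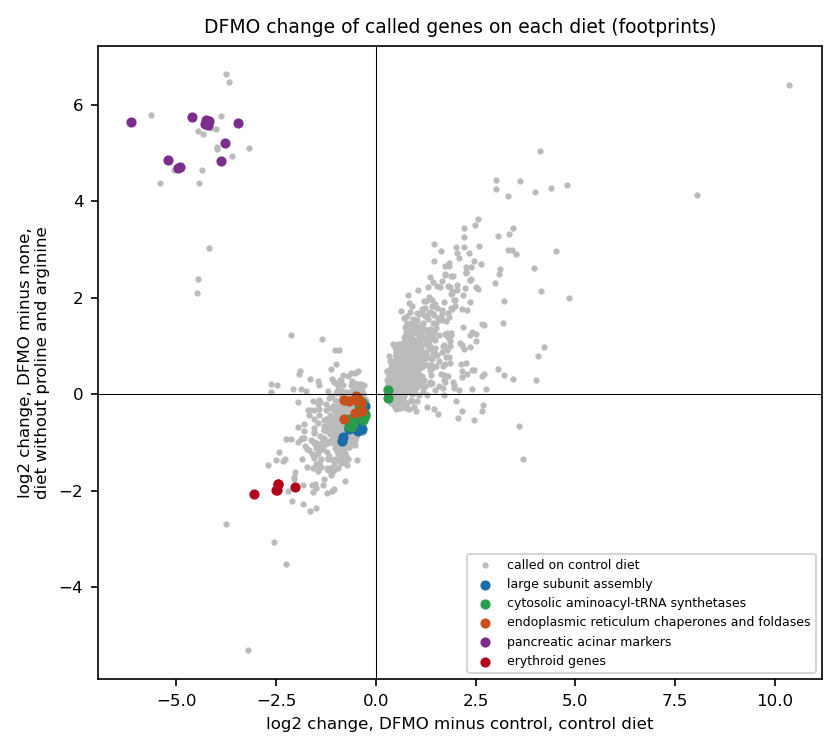
DFMO change of the 2186 genes called on the control diet. The x axis gives the log2 change on the control diet and the y axis that on the diet without proline and arginine, which used other mice. Most points share a sign (91.4%), and the acinar markers lie in the quadrant of opposite signs.

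Called genes differed in the base composition of their coding sequence. Codons ending in G or C made up a median of 55.1% of codons in genes that rose, 65.5% in genes that fell and 60.8% in genes not called, and codons ending in A 21.1%, 15.1% and 17.8%. With the genes in 5 equal groups by this share, the group with the fewest G or C endings had 15.3% of genes called up and 2.95% called down. The group with the most had 5.85% called up and 13.5% called down, and the 3 groups between lay in order. The median change went from 0.18 to -0.08 across them. Per mouse, the median departure from the control mean fell from the first group to the last in each DFMO mouse, most in D5823 (0.276 to -0.161) and D135 (0.240 to -0.119), and less in D5806 (0.172 to -0.042), D5747 (0.130 to -0.048) and D5802 (0.120 to -0.010). It fell also in C5778, the deepest control (0.135 to -0.065), and rose in C5781 (-0.078 to 0.073). Genes called on the other diet showed a narrower gap, at 60.8% for rises and 62.5% for falls. Weighted by footprints, codons ending in G or C were 64.2 to 66.2% in controls and 63.8 to 66.1% under DFMO, so whole libraries overlapped. The control libraries were the shallower ones, and the part of depth in this gradient was not tested. Runs of 3 prolines, at which ribosomes depend on eIF5A, were found in 24.0% of proteins of genes that rose, 26.6% of those that fell and 24.2% of those not called.

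**Figure D5:**
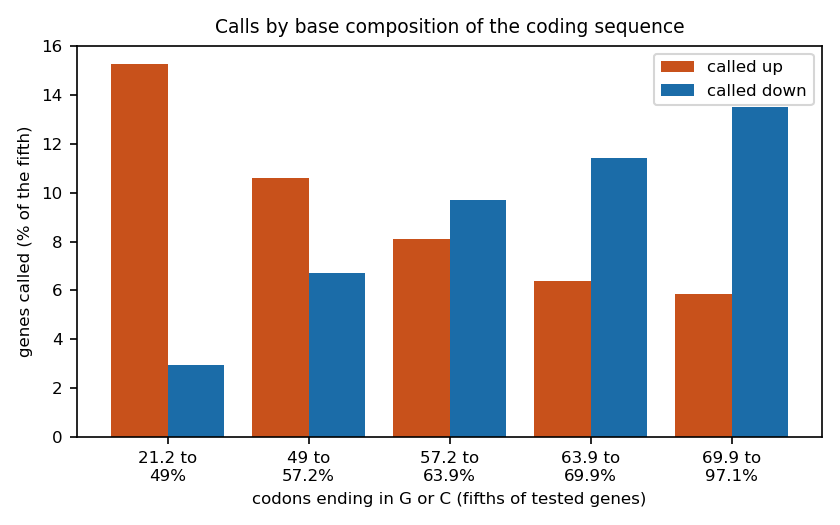
Share of genes called up and down in 5 equal groups of tested genes, ordered by the percentage of codons ending in G or C (x axis, range of each group). The y axis gives the percentage of the group's genes called, from 0. From the first group to the last, the share called up went from 15.3% to 5.85% and the share called down from 2.95% to 13.5%.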

How the data were processed

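Tumors of 10 mice were compared by ribosome footprints. The authors deposited counts per transcript, 1 transcript per gene, and RPKM values of the same libraries. Per the submitters' processing notes, reads were handled with cutadapt, Bowtie2 and HISAT2 on GRCm38; no source used here gives their versions or the counting tool. Per the labels' protocols, extracts made with cycloheximide were digested with RNase I and fragments were selected by size. The lengths implied by the deposited RPKM values lie within 6 bases of the coding length for 90.0% of 20188 transcripts. All columns were mapped to samples by name.

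Counts of all 20 footprint libraries entered a single fit in R 4.3.3 with edgeR 4.0.16 (TMM scaling, filterByExpr, robust quasi-likelihood F test). Of 20333 transcripts 12095 passed the filter, and p values were adjusted by Benjamini-Hochberg over them, with calls at 0.05. CPM were summarised with Python 3.11.15 and pandas 2.3.3, and the permutation test used scipy 1.17.1. The script was checked on simulated data. With 1 library per mouse, p values measure the spread between mice. Depth was 2.14 to 9.04 M counts (M for mega). Intervals were built from counts summed over the mice of a group, so they cover counting error only and leave out the spread between mice. Reads carry no molecular identifiers.

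Lists hold 1481 gene names, of which 1447 were found in the table. The members and lists were chosen with earlier results of these data known. They are described by counts and medians, with no test. Named genes are the 12 largest changes each way with a mean of at least 10 CPM and no overlap between groups, the 5 largest CPM differences and the 5 smallest p each way, all genes of 4 polyamine lists, and up to 4 called members of every other list. Genes outside this rule (Hand2, Th, Cars, Dars, Wars, Hsp90b1, Pdia4, Pdia6, Edem1, Amd2, and those so marked) were chosen after their values were seen, and some genes that meet the rule are not reported here. Promoters are from RefSeq (GRCm38.p6), and transcripts and coordinates from GENCODE M21 on GRCm38.

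Alternatives were RLE scaling, the fit with low counts kept, DESeq2 1.42.0, limma 3.58.1 on log2(RPKM + 1) and log2(RPKM + 0.1), the compared libraries alone, thinning to 2137838 counts, sex as a covariate (set from summed Y-linked footprints above or under 20 CPM), and each mouse left out in turn. Fits without D5747 and D5802, and without C5840 and C5696, were chosen after seeing the data. The limit of 20 CPM was applied to unadjusted library totals.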

Additional observations from a re-analysis of the deposited data

Results flagged for a closer look

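In 27 of 480 groups of 5 mice of the named genes (5.62%), a single mouse lay far from the other 4 by Dixon's criterion, which chance meets in about 1 in 20 groups. Control mouse C5840 gave 7 of them and was high in each, with 140.29 CPM on Try4, 133.5 on Try5, 483.79 on Ctrb1, 85.357 on Cpb1 and 56.117 on Cpa1, all of the pancreas, and 94.217 on Hspa1a and 100.71 on Hspa1b. DFMO mouse D5747 gave 6. It was high on Vip at 95.065 CPM, on Slc3a2 at 136.88 and on Chgb at 1006.9, and low on Hba-a1 at 208.08, on Hbb-bs at 190.72 and on Ube2c at 170.01 CPM.

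Control mouse C5778 was high on Azin1 at 34.26 CPM and on Tcf24 at 0.21547 CPM, a single count, and low on Nop2 at 139.84 and on Pim1 at 41.155 CPM. Control mouse C5812 was high on Morc1 at 8.3872 CPM, on Myh2 at 53.342, on Oaz1 at 263.02 and on Mri1 at 33.213 CPM. DFMO mouse D5806 was low on Elavl4 at 72.239 CPM and high on Ndufv3 at 105.16 CPM. The other 4 mice each stood apart on a single gene: D5823 on Mrpl41 at 63.953 CPM, C5781 on the histone gene H3c3 at 6359.1 CPM, D5802 on the noradrenaline transporter Slc6a2 at 17.783 CPM, and D135 on Col4a2 at 163.76 CPM, all high.

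The DFMO change of 6 named genes differed between the diets in the edgeR test of the difference, at adjusted p = 0.0143 for each. The difference (diet without proline and arginine minus control diet, log2) was 11.79 for Try4, 10.07 for Try5, 9.67 for Ctrb1, 9.93 for Cpb1, 10.36 for Cpa1 and 1.04 for Chga.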

How the results depend on the processing

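The count of genes changed by DFMO on the control diet, 2186 (1117 up, 1069 down), ran from 1539 to 2389 with each mouse left out in turn (767 to 1216 up, 739 to 1173 down). It fell to 1237 (663 up, 574 down) without D5747 and D5802 and to 849 (400 up, 449 down) without C5840 and C5696, fits with fewer samples. After thinning to equal depth it came to 1505 (752 up, 753 down), and with the compared libraries alone to 1640. On the diet without proline and arginine, 2583 to 4144 genes were called with each mouse left out. Genes called in the same direction on both diets, 1190, ran from 886 to 1411, and came to 689 without D5747 and D5802, 535 without C5840 and C5696, and 724 after thinning. The 45 genes whose change differed by diet ran from 0 (without P5785) to 224 (without PD5732). They came to 127 with DESeq2, 183 without D5747 and D5802, 0 without C5840 and C5696, and 26 after thinning, and beyond the missing libraries the cause was not tested. Of 212 called named genes, 154 stayed called whichever mouse was left out. The calls lost numbered 0 with RLE scaling, 1 with DESeq2, 22 after thinning, 35 with the compared libraries alone, 69 without D5747 and D5802, and 91 without C5840 and C5696. Only Slc18a1 changed sign, to -0.011 log2 without D5747 and D5802. No paired analysis was possible because each footprint library is a different mouse and the groups share no mouse numbers.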

Other observations

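Of all genes tested, 18.1% were called. Mitochondrial ribosomal proteins gave 5 rises and 6 falls among 58, proteasome subunits 2 and 4 among 31, and p53 targets 2 and 4 among 19. Falls came to 2 of the first list without D5802 (3 without C5696 or C5840), 1 of the second without C5812, and 2 of the third without D135, C5781 or C5812. In the last list, the exonuclease Aen rose by 0.79 ± 0.19 (edgeR adjusted p = 0.0071), as did Zmat3 by 0.81 ± 0.19 (adjusted p = 0.00714), while Mdm2, which degrades p53, fell by 0.49 ± 0.13 (adjusted p = 0.0109). Cholesterol synthesis gave 2 rises and 0 falls among 24, with Sc5d up by 0.95 ± 0.18 (adjusted p = 0.00173), and fatty acid synthesis 0 rises and 4 falls among 14, with the desaturase Scd2 down, at -0.44 ± 0.11 (adjusted p = 0.0109). Without C5812, 1 gene of fatty acid synthesis fell, and without D5823, C5696 or C5781 2 did.

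Footprints on skeletal muscle myosins were lower in all 5 DFMO mice than in any control. They fell, Myh4 by 2.70 ± 0.51 (adjusted p = 0.00229) and Myh2 by 2.05 ± 0.38 (adjusted p = 0.00205). Of 11 tested kidney, liver and muscle markers 4 fell and 0 rose, against 8.84% of all genes that fell. Without C5696, 1 of these markers fell. Their median turned from -0.80 to -0.06 without C5840 and C5696. Adrenal cortex markers gave 0 rises and 1 fall among 10, and adipocyte markers 0 and 1 among 8. Interferon genes gave 0 rises and 2 falls among 25, and 0 falls without D5802, C5696, C5778 or C5781. None of the 4 Y-linked genes was called, with all 4 values below 0 and a median of -0.64. Their summed footprints were under the 20 CPM that set sex in the alternative fit in D5747 (7.09), D5823 (17.4), D135 (11.2) and C5812 (8.13), so 3 of 5 DFMO mice and 1 of 5 controls.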
